A study of Mus musculus with 10 samples.

Results

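The proteinases that cut extracellular matrix and the inhibitors that hold them in check were followed in femurs of old and young mice: the matrix metalloproteinases (MMPs), the secreted ADAMTS proteinases, the ADAMTS-like proteins, which share the ADAMTS accessory domains but have no catalytic domain, and the tissue inhibitors of metalloproteinases (TIMPs). Members were the protein-coding genes whose symbols name a numbered Mmp, Adamts, Adamtsl or Timp gene, which gave 48 of the 38962 genes in the count table, made up of 20 Mmp, 19 Adamts, 5 Adamtsl and 4 Timp genes. Of these, 44 passed the filter on low counts and were tested among 22088 genes, while Mmp7, Mmp12, Adamts16 and Adamts19 did not pass. A 49th matching name, Mmp1a, is annotated as a polymorphic pseudogene and was not a member.

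The old group was 5 male C57BL/6J mice aged 22 months, which came from the colony of the National Institute on Aging and were kept in house until that age, and the young group was 5 male C57BL/6J mice aged 2 months, which came from the Jackson Laboratory. Age and supplier therefore cannot be told apart. Marrow was flushed from the femurs, the bone was pulverized, and enriched mRNA was sequenced as 1 library per mouse, so each value is an average over all cells left in the bone. Total counts were 31788232 to 45075335 in the old libraries and 33447009 to 40395050 in the young libraries.

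Matrix metalloproteinases and ADAMTS proteinases are zinc enzymes made as inactive proenzymes, and they become active once the propeptide is cut off by furin-like convertases, plasmin or another metalloproteinase. TIMPs bind the active site, and TIMP2 has a further role, since it docks proMMP2 onto the membrane enzyme MMP14 at the cell surface, where MMP2 is activated. In bone, MMP13 of osteoblasts and hypertrophic chondrocytes cuts fibrillar collagen, MMP9 is abundant in osteoclasts, and loss of MMP14 or of MMP2 is known to disturb the skeleton in mice and humans. ADAMTS2, ADAMTS3 and ADAMTS14 trim the amino-terminal propeptide from fibrillar procollagens, and ADAMTS4 and ADAMTS5 cut the cartilage proteoglycan aggrecan.

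Levels are given in CPM, the counts of a gene relative to the total of its library after TMM scaling, and a gene was called where edgeR's quasi-likelihood comparison of old with young gave a p no higher than 0.05 after Benjamini-Hochberg correction over all tested genes. By that measure 14 of the 44 tested members were called, or 31.8%, against 7.29% of all tested genes. Of these, 12 were lower in old bone (27.3%, against 3.61% of all genes) and 2 were higher (4.55%, against 3.68%). At an unadjusted p under 0.05 there were 17 members, 14 of them lower. The old and young libraries did not overlap in CPM for 12 members (27.3%, against 7.8% of all genes), with every old library below every young one for 11 of them (4.12% of all genes) and above for 1 (3.68%). The median log2 fold change of the 44 members was -0.01, against 0.01 over all tested genes, so the middle of the family lay close to that of all genes. The 30 members not called had a median of 0.09 and lay between -0.61 and 1.15.

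**Figure D1:**
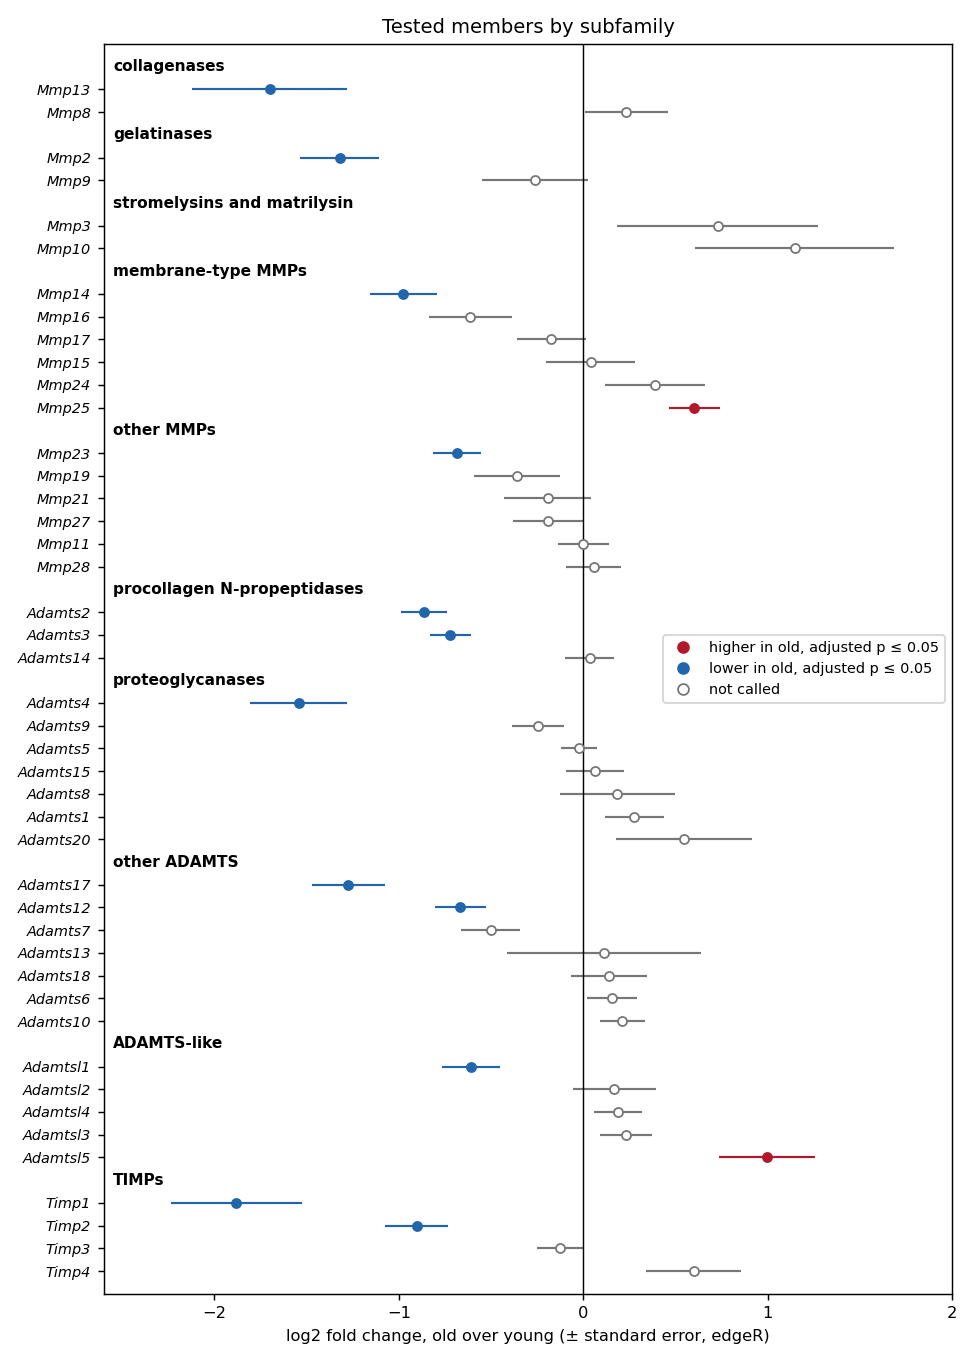
Log2 fold change of old over young bone (horizontal axis) for the 44 tested members, grouped by subfamily, with bars of 1 standard error from edgeR. Red points were called higher in old bone, blue points lower and open points were not called. Timp1, Mmp13 and Adamts4 lie farthest to the left, and Adamtsl5 and Mmp25 are the red points.

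The calls were spread over the family. Lower calls fell on 1 of 2 collagenases, 1 of 2 gelatinases, 1 of 6 membrane-type MMPs, 1 of 6 tested other MMPs, 2 of 3 procollagen N-propeptidases, 1 of 7 proteoglycanases, 2 of 7 tested other ADAMTS proteinases, 1 of 5 ADAMTS-like genes and 2 of 4 TIMPs. Neither tested gene of the stromelysins and matrilysin was called. Taken by enzyme class, 4 of 18 tested MMPs were lower and 1 was higher, and 5 of 17 tested ADAMTS proteinases were lower and none was higher. The summed CPM of all TIMPs was 196.5 to 324 in old libraries, against 348 to 447.2 in young libraries, without overlap. Timp2 (mean 137.1 CPM in old and 256.4 in young bone) and Timp3 (114.2 and 124.6) made up most of that sum. The sum over MMPs, 548.2 to 1294 in old and 1098 to 2017 in young libraries, did overlap, as did that over ADAMTS proteinases, 416.6 to 526.4 in old and 460.9 to 581.4 in young libraries. Without Mmp9 the MMP sum did not overlap, at 342.2 to 673.5 in old and 761.7 to 1262 in young libraries. By subfamily, the sums of membrane-type MMPs, other MMPs and procollagen N-propeptidases were also apart, and those of the remaining enzyme and ADAMTS-like subfamilies overlapped.

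Per kb of gene length, which allows levels of different genes to be set beside each other, Mmp9 and Mmp13 were the most abundant members in both groups. Mmp9 stood at 119 ± 45.8 CPM per kb in old and 142 ± 47.0 in young bone (SD, n = 5 each), and Mmp13 at 43.3 ± 25.7 in old and 141 ± 57.4 in young bone. Those levels overlapped in young bone within their SD, whereas in old bone Mmp13 lay below Mmp9 by more than either SD. Below them in old bone came Timp2 (35.2 ± 10.3 CPM per kb), Mmp2 (31.9 ± 11.2), Mmp8 (31.5 ± 10.2), Adamts10 (17.7 ± 1.92) and Mmp14 (15.2 ± 3.97), where Timp2, Mmp2 and Mmp8 differed by less than their SDs. The same genes stood at 65.8 ± 4.18, 79.7 ± 2.20, 26.8 ± 7.5, 15.3 ± 2.37 and 29.9 ± 6.01 CPM per kb in young bone. Timp1 was at 5.54 ± 2.71 CPM per kb in old and 20.6 ± 6.40 in young bone, which placed it 13th among the members in old bone and 7th in young bone.

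**Figure D2:**
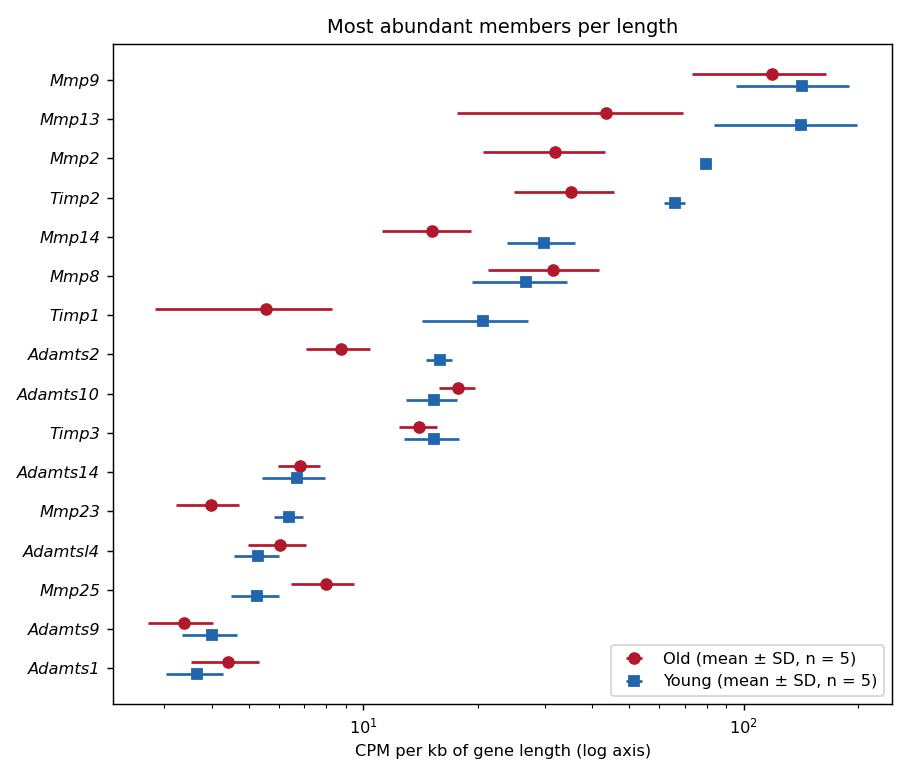
Level of the most abundant members in CPM per kb of gene length (horizontal log axis), as mean ± SD over 5 old (red circles) and 5 young (blue squares) libraries. Mmp9 leads in both groups, and Mmp13 stands level with it in young but not in old bone.

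MMP2, MMP14 and TIMP2, which form the surface complex that activates MMP2, were all lower in old bone at the RNA level. Mmp2 encodes gelatinase A (ENSMUSG00000031740.8, chr8:92827291-92853420), which digests denatured collagen and basement membrane. Its level was 108, 143, 87.8, 54.8 and 144 CPM in old libraries 1 to 5, against 268, 271, 278, 268 and 258 CPM in young libraries 1 to 5. Every old library lay below every young one, and the young libraries were nearly level while the old ones spread widely, with old library 4 lowest. The difference was past the threshold (log2 fold change -1.32, SE 0.21, edgeR adjusted p = 0.00379).

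Mmp14, the membrane-anchored collagenase (ENSMUSG00000000957.11, chr14:54431612-54445364), measured 82.1, 109, 68.4, 71.6 and 122 CPM in the old libraries and 195, 156, 232, 168 and 141 CPM in the young libraries. The groups did not overlap, but old library 5 and young library 5 came close to each other (log2 fold change -0.98, SE 0.18, edgeR adjusted p = 0.00675). Timp2 (ENSMUSG00000017466.9, chr11:118301069-118355740) measured 128, 187, 113, 89.3 and 168 CPM in the old libraries and 230.5, 264, 253, 274 and 261 CPM in the young libraries, again without overlap and with old library 4 lowest (log2 fold change -0.90, SE 0.17, edgeR adjusted p = 0.00743).

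Ratios taken within a library do not depend on how libraries are scaled to each other. They are given here in CPM per kb as a description, without a test, since they were chosen after the values were seen. Mmp2 over Timp2 was 0.976, 0.881, 0.898, 0.708 and 0.988 in the old libraries and 1.34, 1.19, 1.27, 1.13 and 1.14 in the young libraries. All old libraries held less Mmp2 than Timp2 RNA per kb and all young libraries held more. Mmp14 over Timp2 overlapped between groups, at 0.38 to 0.524 in old and 0.352 to 0.599 in young libraries. Mmp2 over Mmp14 also overlapped, at 1.35 to 2.33 in old and 2.12 to 3.24 in young libraries.

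**Figure D3:**
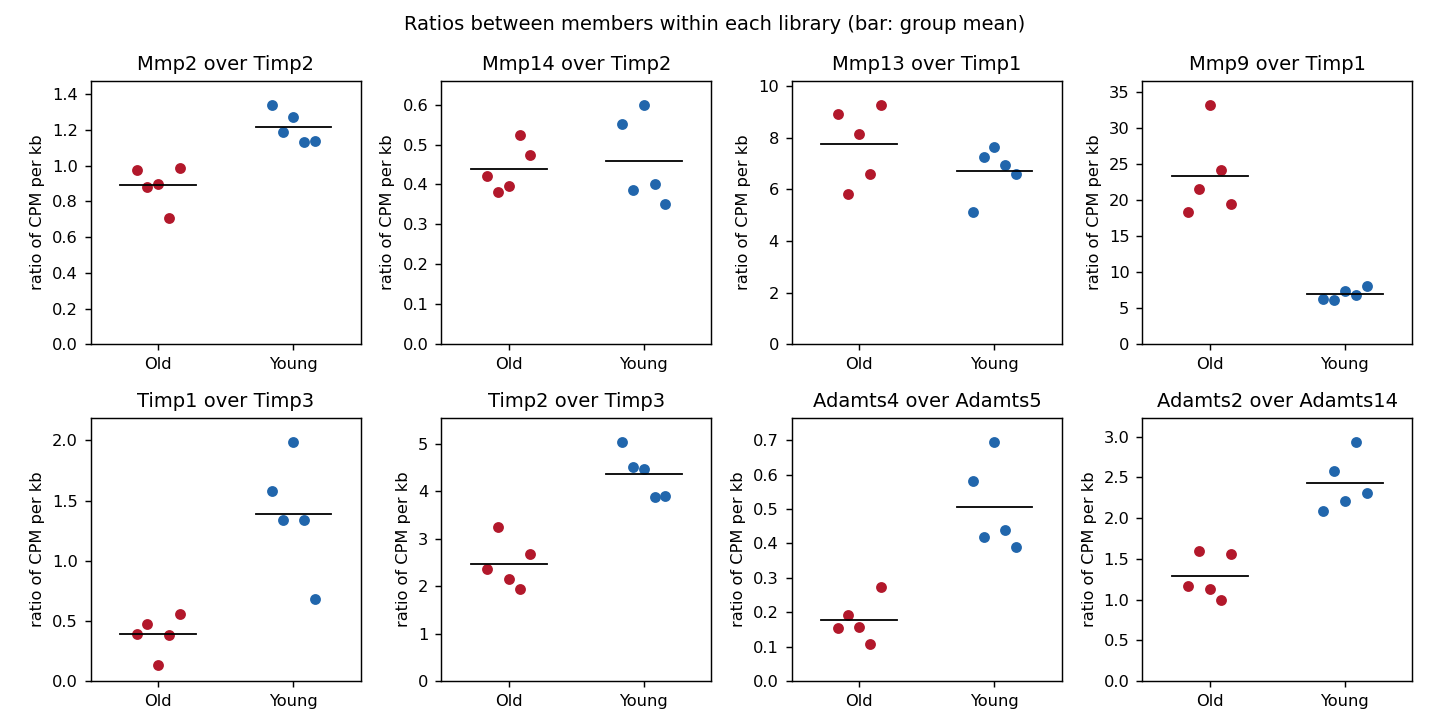
Ratio of the levels of 2 members within each library, in CPM per kb over CPM per kb (vertical axis), for the old (red, left) and young (blue, right) libraries, with a bar at the group mean. The groups are apart for Mmp2 over Timp2, Mmp9 over Timp1, Timp1 over Timp3, Timp2 over Timp3, Adamts4 over Adamts5 and Adamts2 over Adamts14, and overlap for Mmp14 over Timp2 and Mmp13 over Timp1.

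Mmp9, gelatinase B (ENSMUSG00000017737.2, chr2:164940780-164955850), was not called. It measured 352, 536, 206, 389.5 and 621 CPM in the old libraries and 416, 430.5, 756, 582 and 336 CPM in the young libraries. The groups overlapped over most of their range (log2 fold change -0.26, SE 0.29, edgeR adjusted p = 0.603), and the approximate 95% interval of the log2 fold change, -0.83 to 0.30, holds changes in either direction. Young library 3 was highest and old library 3 lowest, and the same libraries were highest and lowest in the summed CPM of 10 osteoclast markers, which was 596 to 1282 in old and 920.8 to 1692 in young libraries. The largest parts of that sum were Itgb3 (mean 361 CPM in old and 296 in young bone), Ctsk (199 and 361) and Acp5 (159 and 295). None of those 10 markers was called and none was at 0 in any library. However, 8 of the 10 had a negative log2 fold change (median -0.495), and 2 had an unadjusted edgeR p under 0.05, both lower in old bone. The part of osteoclast content in the level of Mmp9 was not tested.

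Of the 2 collagenases, Mmp13 was lower and Mmp8 was not called. Mmp13, collagenase 3 (ENSMUSG00000050578.10, chr9:7272514-7283331), measured 129, 109, 38.2, 80.1 and 222 CPM in the old libraries and 253, 389, 587, 449 and 205 CPM in the young libraries. The groups overlapped only in that old library 5 exceeded young library 5 (log2 fold change -1.70, SE 0.42, edgeR adjusted p = 0.0349). The call rested on a wide spread, and it ended without old library 2 (0.0515), old library 3 (0.0529), old library 4 (0.0973), young library 2 (0.0824), young library 3 (0.0682) or young library 4 (0.0868), where each value is the edgeR adjusted p. It also ended with no filter on low counts (0.109) and with muscle markers as a covariate (0.0881), while the log2 fold change stayed between -1.76 and -1.48 in all of these fits.

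Osteoblast markers were set beside Mmp13. Of 12 tested, 6 were lower in old bone and none was higher (against 3.61% and 3.68% of all tested genes), and none was at 0 in any library. Their summed CPM was 18470 to 45880 in old and 43180 to 91900 in young libraries. Most of that sum was Col1a1 (mean 17810 CPM in old and 41580 in young bone) and Col1a2 (8547 and 21060), so it mainly follows these collagen genes. Old library 5 had the highest osteoblast sum of its group and young library 5 the lowest of its group, and these are the libraries in which Mmp13 crossed over. The order was not the same throughout. Young library 1 had a higher sum (75820 CPM) than young libraries 2 (53180) and 4 (59440) but less Mmp13 than either. Hypertrophic cartilage, the other known source of MMP13 in bone, is marked by Col10a1, which was 9.33 ± 1.80 CPM in old and 32.2 ± 21.9 CPM in young bone (log2 fold change -1.79, SE 0.45, edgeR adjusted p = 0.0376), a call that also ended without any 1 of old libraries 1 to 5 or young libraries 2 to 4 (edgeR adjusted p 0.0504 to 0.101), with no filter (0.114), with muscle markers as a covariate (0.0811) and in limma-voom (0.0778). Col10a1 was at 9.29, 36.4, 62.0, 41.5 and 12.0 CPM in young libraries 1 to 5, against 7.82 to 12.2 CPM in the old libraries. Young libraries 1 and 5, the lowest of their group in Mmp13, thus lay within the old range of Col10a1. Among the old libraries the order of Col10a1 was the reverse of that of Mmp13. Chondrocyte markers summed to 746.3 to 1632 CPM in old and 1057 to 2776 CPM in young libraries, with 5 of 12 tested markers lower (against 3.61% of all tested genes). Most of that sum was Col11a2 (mean 622 CPM in old and 1073 in young bone) and Col2a1 (302 and 447), neither of which was called. Whether fewer such cells or less RNA per cell lay behind a lower level cannot be told apart in whole bone, and the part of these markers in the result for Mmp13 was not tested.

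Mmp8, the collagenase of neutrophil granules (ENSMUSG00000005800.3, chr9:7558456-7568485), measured 66.3, 117, 50.7, 76.0 and 71.8 CPM in the old libraries and 55.4, 76.1, 49.7, 91.6 and 52.3 CPM in the young libraries. The groups overlapped (log2 fold change 0.23, SE 0.23, edgeR adjusted p = 0.549), and old library 2 was highest. That library was also highest in the summed CPM of the neutrophil markers, which was 1848 to 5688 in old and 2191 to 3237 in young libraries, so that granulocyte RNA was present in the flushed bone of both groups. Of the 16 listed neutrophil markers, 1 was at 0 in some library. Of 15 neutrophil markers tested, 1 was higher in old bone (against 3.68% of all tested genes), namely Csf3r, the receptor for granulocyte colony-stimulating factor (242 ± 34.0 CPM in old and 165 ± 27.4 CPM in young bone, log2 fold change 0.55, SE 0.13, edgeR adjusted p = 0.0253). Only 1 of the 15 had a negative log2 fold change, and the median was 0.32. An unadjusted edgeR p under 0.05 was found for 3 of them, none lower in old bone.

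**Figure D4:**
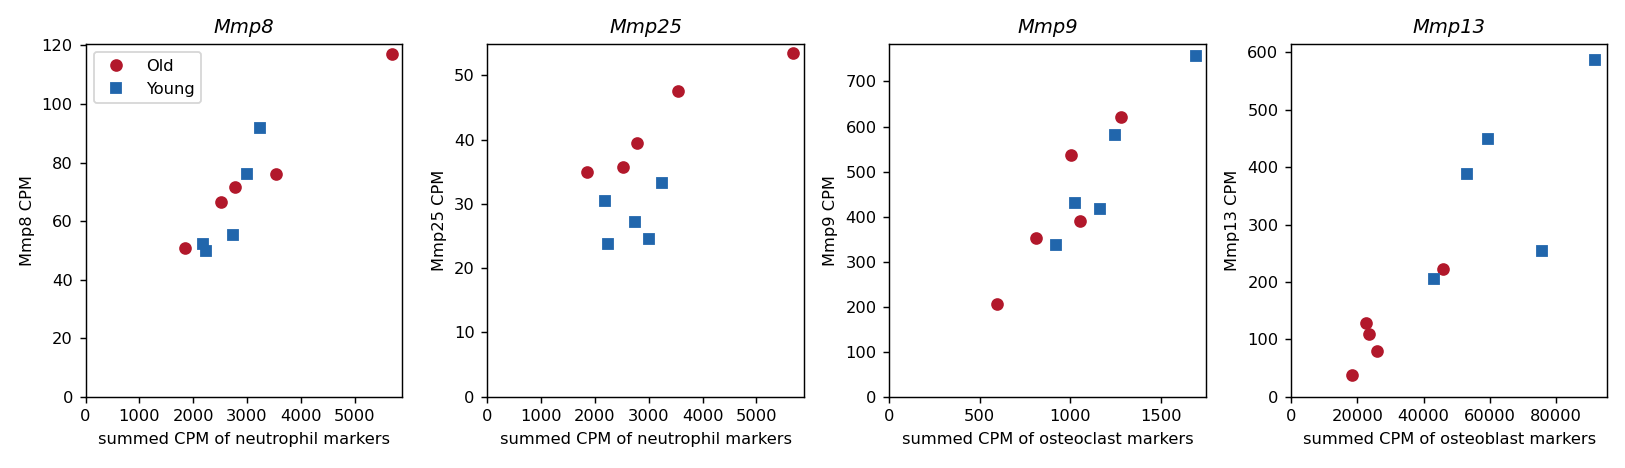
CPM of Mmp8, Mmp25, Mmp9 and Mmp13 in each library (vertical axes) against the summed CPM of neutrophil, osteoclast or osteoblast markers in that library (horizontal axes), with old libraries as red circles and young libraries as blue squares. Old library 2 is highest in both neutrophil panels, the old points lie above the young ones for Mmp25, and old library 5 and young library 5 lie next to each other for Mmp13.

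Mmp13 and Mmp8 lie in a cluster of MMP genes on mouse chromosome 9, which spanned 427 kb (chr9:7272514-7699585) and held 7 members: Mmp13, Mmp12, Mmp3, Mmp10, Mmp8, Mmp27 and Mmp7. Of the 5 tested, Mmp13 was lower and none was higher. The binding motif of AP-1, the Fos and Jun dimer that drives many MMP genes, was searched for in the RefSeq promoters of the members on build GRCm38.p6, from 250 bases before to 50 bases after the start site. The letters TGAGTCA, or TGACTCA on the other strand, were in the promoters of 5 of the 33 member genes that had an entry, against 5.2% of all 32851 promoters. All 5 genes lie in the chromosome 9 cluster, and the motif was in neither the Mmp8 nor the Mmp27 window. The 30 bases around each match are shown because they are what these neighbouring members have in common. All are on the plus strand, 5′ to 3′, with the AP-1 letters in capitals.
Mmp13 (chr9:7272468-7272497, match 35 bases before the start site): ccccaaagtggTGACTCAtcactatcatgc
Mmp12 (chr9:7347319-7347348, match 44 bases before): gacatcaacagTGAGTCAgatagaggattt
Mmp3 (chr9:7445765-7445794, match 46 bases before): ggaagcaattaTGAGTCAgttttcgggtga
Mmp10 (chr9:7502268-7502297, match 63 bases before): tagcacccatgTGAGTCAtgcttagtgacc
Mmp7 (chr9:7692016-7692045, match 63 bases before): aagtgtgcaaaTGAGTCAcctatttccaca

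The motif of the osteoblast factor RUNX2, searched as TGTGGTT or AACCACA, was in the promoters of Mmp13, Mmp27 and Mmp7, against 5.27% of all promoters, and in Mmp13 it did not overlap the AP-1 letters. It is shown for Mmp13, the gene of the cluster that was called, in capitals on the plus strand.
Mmp13 RUNX (chr9:7272384-7272413, match 119 bases before the start site): attctgccacaAACCACActtaggaagaaa

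These matches are a description of the letters and not of binding. Apart from Mmp13, none of the members with the AP-1 letters was called. Mmp3, stromelysin 1, was at 1.17 ± 0.867 CPM in old and 0.721 ± 0.393 CPM in young bone (log2 fold change 0.73, SE 0.55, edgeR adjusted p = 0.428). Mmp10, stromelysin 2, was at 0.426 ± 0.345 CPM in old and 0.187 ± 0.121 CPM in young bone (log2 fold change 1.15, SE 0.54, edgeR adjusted p = 0.199). Mmp12, macrophage elastase, was at 0.479 ± 0.470 CPM in old and 0.248 ± 0.232 CPM in young bone and was not tested. Mmp7, matrilysin, had no count in any old library, which allows up to 3 counts in each for counting error alone. Its raw counts in young libraries 1 to 5 were 0, 0, 0, 0 and 1, so it was near absent in both groups. Mmp1a lies in the same cluster (chr9:7464141-7476869), and its raw counts were 37, 20, 7, 10 and 55 in the old libraries and 3, 9, 3, 4 and 2 in the young libraries. In CPM the groups did not overlap, by a narrow margin between old library 4 (0.234 CPM) and young library 2 (0.227 CPM), while the raw counts did overlap. The gene did not pass the filter. In the fit with no filter its log2 fold change was 2.60 (SE 0.55, edgeR adjusted p = 0.00710). It was picked out after its values were seen.

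Among the membrane-type MMPs, Mmp25 was the only one of 6 that was higher in old bone. Mmp25 (ENSMUSG00000023903.8, chr17:23628311-23645277) encodes a membrane-linked enzyme known as leukolysin from human leukocytes. It measured 35.8, 53.4, 35.0, 47.6 and 39.4 CPM in the old libraries and 27.2, 24.5, 23.8, 33.3 and 30.5 CPM in the young libraries. Every old library lay above every young one, by a narrow margin between old library 3 and young library 4 (log2 fold change 0.60, SE 0.14, edgeR adjusted p = 0.0198). The call ended when libraries were scaled by their total counts (0.44, edgeR adjusted p = 0.201) and without young library 2 (0.56, adjusted p = 0.0638).

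Old library 2, the highest in neutrophil markers, was also the highest in Mmp25. With the neutrophil markers as a covariate the log2 fold change of Mmp25 was 0.51 (edgeR adjusted p = 0.0103), and that of Mmp8 was 0.05 (0.815). In the same fit that of Mmp9 was -0.41 (edgeR adjusted p = 0.344). Mmp25 over Mmp8 within a library overlapped between the groups, at 0.208 to 0.316 in old and 0.147 to 0.267 in young libraries. Mmp16, another membrane-type enzyme, named here after its values were seen, was at 16.9 ± 5.34 CPM in old and 25.8 ± 6.29 CPM in young bone and was not called (log2 fold change -0.61, SE 0.22, edgeR adjusted p = 0.114). Mmp15, Mmp17 and Mmp24 were not called either, with log2 fold changes of 0.04, -0.17 and 0.39.

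Mmp23, a short MMP held in the membrane by its amino terminus (ENSMUSG00000029061.2, chr4:155650655-155653384), measured 8.61, 9.29, 7.55, 8.81 and 12.2 CPM in the old libraries and 14.8, 13.8, 17.2, 14.8 and 14.2 CPM in the young libraries. The groups did not overlap, and old library 5 stood above the other old libraries (log2 fold change -0.68, SE 0.13, edgeR adjusted p = 0.00785). The other tested MMPs outside these classes, Mmp11, Mmp19, Mmp21, Mmp27 and Mmp28, lay between -0.36 and 0.06 on the log2 scale and none was called.

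**Figure D5:**
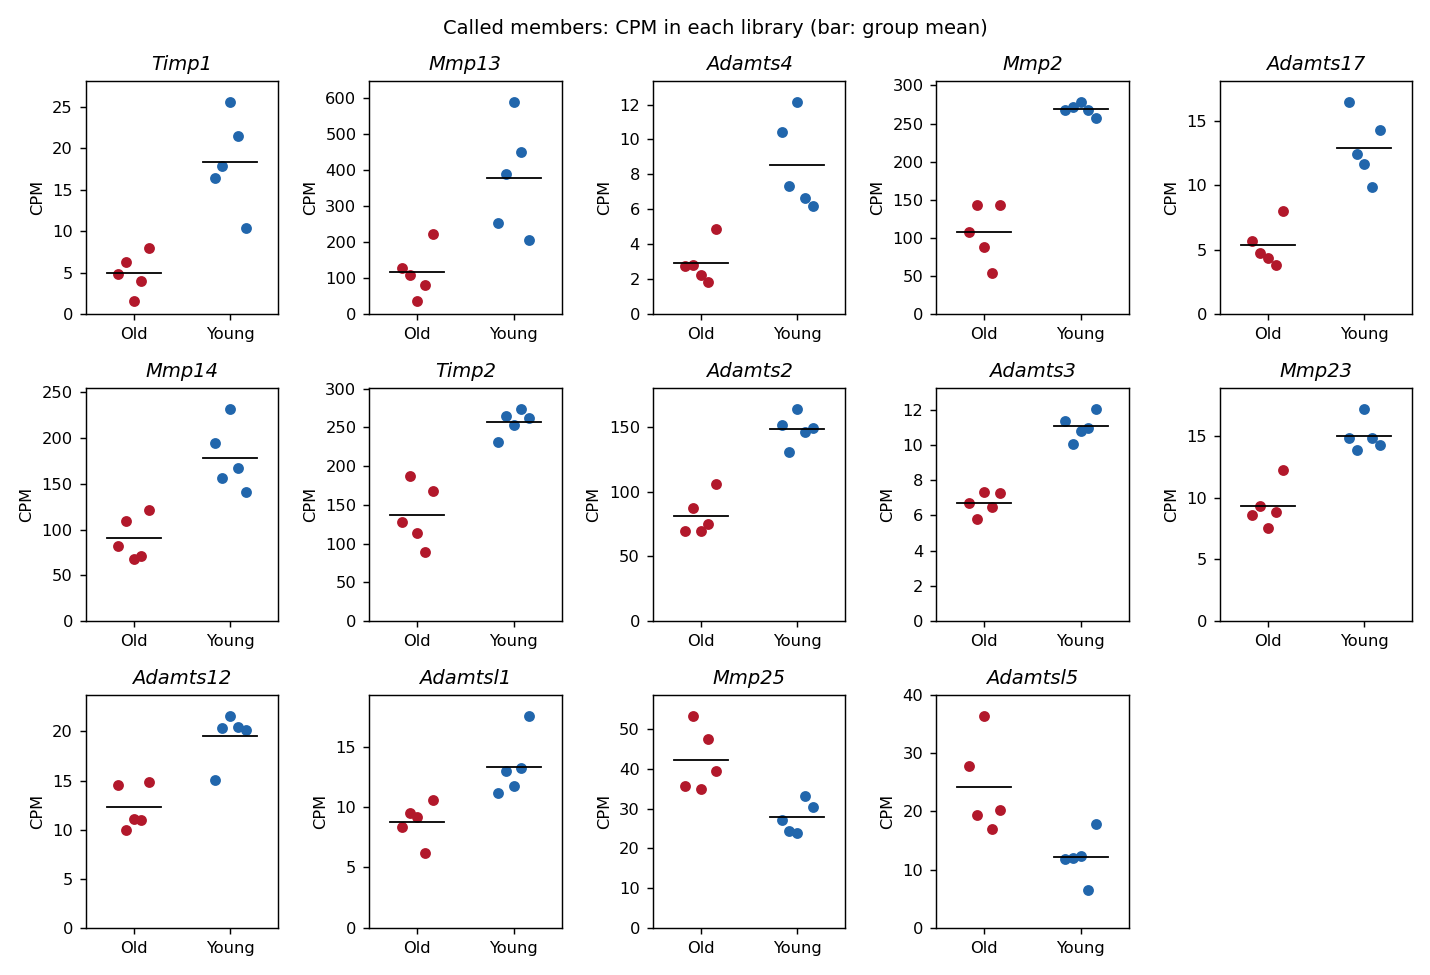
CPM of the 14 called members in each library (vertical axes starting at 0), old libraries in red on the left and young libraries in blue on the right, with a bar at the group mean. The groups are apart in all panels except those of Mmp13 and Adamtsl5, and Mmp25 and Adamtsl5 are the panels in which the old mean is higher.

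Of the 3 enzymes that trim the amino-terminal propeptide of procollagens, Adamts2 and Adamts3 were lower and Adamts14 was not called. Adamts2, which acts mainly on procollagens I and III (ENSMUSG00000036545.9, chr11:50602084-50807573), measured 69.9, 87.7, 69.3, 75.1 and 106 CPM in the old libraries and 151, 131, 164, 146 and 149 CPM in the young libraries. The groups lay far apart, with old library 5 the highest of its group (log2 fold change -0.86, SE 0.13, edgeR adjusted p = 0.00158). Adamts3, first described for procollagen II (ENSMUSG00000043635.12, chr5:89677087-89883334), measured 6.71, 5.79, 7.33, 6.45 and 7.26 CPM in the old libraries and 11.4, 10.1, 10.8, 10.9 and 12.0 CPM in the young libraries. Both groups were tight and did not overlap (log2 fold change -0.72, SE 0.11, edgeR adjusted p = 0.00216).

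Adamts14, the third enzyme of the group, named here after its values were seen, was at 35.5 ± 4.52 CPM in old and 34.7 ± 6.49 CPM in young bone. It was not called (log2 fold change 0.03, SE 0.13, edgeR adjusted p = 0.899), and its approximate 95% interval ran from -0.23 to 0.30 on the log2 scale. Its sign turned negative when libraries were scaled by total counts (-0.12). Adamts2 over Adamts14 in CPM per kb was 1.17, 1.6, 1.13, 0.994 and 1.56 in the old libraries and 2.09, 2.58, 2.21, 2.94 and 2.31 in the young libraries, so the ratio of the trimming enzymes was below that of every young library in each old one. Adamts3 over Adamts14 did not overlap either, at 0.147 to 0.206 in old and 0.25 to 0.378 in young libraries. The substrate Col1a1 was lower too (17810.0 ± 6845 CPM in old and 41580.0 ± 13140.0 CPM in young bone, log2 fold change -1.22, SE 0.30, edgeR adjusted p = 0.0267), though that call ended with no filter on low counts (edgeR adjusted p = 0.0513) and without old library 1, 2 or 3 or young library 1, 3 or 4 (0.0513 to 0.0640). Adamts2 over Col1a1 overlapped, at 0.00252 to 0.00415 in old and 0.00192 to 0.00377 in young libraries.

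Of the proteoglycanases, which cut aggrecan, versican and related core proteins, Adamts4 was the only one of 7 called. Adamts4, aggrecanase 1 (ENSMUSG00000006403.13, chr1:171250421-171260637), measured 2.74, 2.83, 2.28, 1.85 and 4.88 CPM in the old libraries and 10.4, 7.33, 12.1, 6.64 and 6.20 CPM in the young libraries. Old library 5 was the highest of its group and still lay below every young library (log2 fold change -1.54, SE 0.26, edgeR adjusted p = 0.00486). Of the 48 members, 12 share exon bases with a gene on the opposite strand, and Adamts4 was the only called one among them. The sources used here do not give whether counting used strand.

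Adamts5, aggrecanase 2, named here after its values were seen, was at 37.0 ± 3.94 CPM in old and 37.6 ± 2.68 CPM in young bone (log2 fold change -0.02, SE 0.10, edgeR adjusted p = 0.899, approximate 95% interval -0.22 to 0.17). In CPM per kb, Adamts4 over Adamts5 was 0.154, 0.193, 0.158, 0.106 and 0.272 in the old libraries and 0.583, 0.42, 0.696, 0.44 and 0.39 in the young libraries, without overlap. Adamts9, which cuts versican as well as aggrecan, was at 50.8 ± 9.82 CPM in old and 60.2 ± 9.93 CPM in young bone (log2 fold change -0.24, SE 0.14, edgeR adjusted p = 0.296). Adamts1, Adamts8, Adamts15 and Adamts20 lay between 0.07 and 0.54 on the log2 scale and none was called. Aggrecan itself, Acan, was at 4.77 ± 3.39 CPM in old and 44.5 ± 17.4 CPM in young bone (log2 fold change -3.25, SE 0.46, edgeR adjusted p = 0.00244).

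Among the other ADAMTS proteinases, Adamts17 and Adamts12 were lower. Adamts17 (ENSMUSG00000058145.16, chr7:66839735-67153171), whose loss in humans gives short stature and eye defects, measured 5.70, 4.75, 4.37, 3.80 and 8.02 CPM in the old libraries and 16.4, 12.4, 11.6, 9.83 and 14.3 CPM in the young libraries. The groups did not overlap, and old library 5 was the highest of its group (log2 fold change -1.27, SE 0.20, edgeR adjusted p = 0.00244). Adamts12 (ENSMUSG00000047497.10, chr15:11064790-11349231), which can cut cartilage oligomeric matrix protein, measured 14.6, 9.97, 11.1, 11 and 14.8 CPM in the old libraries and 15.1, 20.4, 21.6, 20.4 and 20.1 CPM in the young libraries. Young library 1 stood well below the other young libraries and just above old libraries 1 and 5 (log2 fold change -0.67, SE 0.14, edgeR adjusted p = 0.0126).

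Adamts7, the close relative of Adamts12 and named here after its values were seen, was at 7.22 ± 1.34 CPM in old and 10.3 ± 2.00 CPM in young bone and just missed the threshold (log2 fold change -0.50, SE 0.16, edgeR adjusted p = 0.0698). It passed without old library 4 (edgeR adjusted p = 0.035), with total count scaling (0.0371) and in DESeq2 (0.0426). Adamts10, which binds fibrillin microfibrils and was the most abundant ADAMTS proteinase per length in old bone, was at 146 ± 15.9 CPM in old and 126 ± 19.6 CPM in young bone (log2 fold change 0.21, SE 0.12, edgeR adjusted p = 0.294). Adamts6, Adamts13 and Adamts18 were not called, with log2 fold changes of 0.11 to 0.16. Adamts16 and Adamts19, which were not tested, were at 0.253 ± 0.152 and 0.117 ± 0.132 CPM in old bone and at 0.186 ± 0.0663 and 0.0496 ± 0.0516 CPM in young bone.

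The ADAMTS-like genes gave a call in each direction. Adamtsl5 (ENSMUSG00000043822.18, chr10:80339110-80348412), a fibrillin-binding protein, measured 27.8, 19.3, 36.4, 17.1 and 20.2 CPM in the old libraries and 11.9, 12.0, 12.3, 6.58 and 17.8 CPM in the young libraries. The groups overlapped, as young library 5 lay above old library 4, and old library 3 was the highest and young library 4 the lowest (log2 fold change 0.99, SE 0.26, edgeR adjusted p = 0.0423). Old library 3 was also the highest in summed skeletal muscle markers (108300 CPM) and young library 4 the lowest (23540 CPM), and with muscle markers as a covariate the log2 fold change was 0.65 (edgeR adjusted p = 0.0346). Without the covariate its adjusted p was the highest of the 14 calls. The call ended with no filter on low counts (edgeR adjusted p = 0.0962), and without old library 1 (edgeR adjusted p = 0.0584), old library 3 (0.077), old library 5 (0.0542), or young library 1 (0.0756), 2 (0.107), 3 (0.0734) or 4 (0.0588).

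Adamtsl1, also called punctin (ENSMUSG00000066113.16, chr4:85514172-86428385), measured 8.33, 9.55, 9.15, 6.21 and 10.6 CPM in the old libraries and 11.1, 13.0, 11.8, 13.2 and 17.6 CPM in the young libraries. The groups touched without overlap between old library 5 and young library 1, and young library 5 stood highest (log2 fold change -0.61, SE 0.16, edgeR adjusted p = 0.0342). The call ended without old library 1 (edgeR adjusted p = 0.0578), old library 3 (0.0601), or young library 2 (0.0754), 4 (0.0706) or 5 (0.0616). Adamtsl2, Adamtsl3 and Adamtsl4 lay between 0.17 and 0.23 on the log2 scale and none was called.

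Of the 4 inhibitors, Timp1 and Timp2 were lower and Timp3 and Timp4 were not called. Timp1 (ENSMUSG00000001131.11, chrX:20870166-20874735), which binds proMMP9 as well as active MMPs, measured 4.81, 6.25, 1.56, 4.03 and 7.97 CPM in the old libraries and 16.5, 17.8, 25.6, 21.5 and 10.4 CPM in the young libraries. Every old library lay below every young one, with old library 3 lowest and young library 3 highest, and it was the largest fall among the tested members (log2 fold change -1.88, SE 0.36, edgeR adjusted p = 0.0112). Timp3 (ENSMUSG00000020044.13, chr10:86300372-86349506), which stays bound to the matrix and also inhibits ADAMTS4 and ADAMTS5, measured 113, 121, 110.1, 96.1 and 131 CPM in the old libraries and 95.4, 122, 118, 147 and 140.3 CPM in the young libraries. The groups overlapped (log2 fold change -0.13, SE 0.13, edgeR adjusted p = 0.559, approximate 95% interval -0.37 to 0.12). Of its exon bases 1733 (21.3%) are shared with Syn3 on the opposite strand, which averaged 3.48 CPM.

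Timp4 (ENSMUSG00000030317.8, chr6:115241892-115252205), the inhibitor with the most restricted expression, measured 10.2, 9.67, 14.9, 7.05 and 14.0 CPM in the old libraries and 5.72, 8.36, 5.68, 5.13 and 11.9 CPM in the young libraries. The groups overlapped through young libraries 2 and 5 (log2 fold change 0.60, SE 0.26, edgeR adjusted p = 0.167), and without young library 5 the log2 fold change was 0.84 (edgeR adjusted p = 0.0415). With muscle markers as a covariate it was 0.28 (0.447), and with total count scaling 0.39 (0.346). Within a library, Timp1 over Timp3 was 0.391, 0.474, 0.13, 0.385 and 0.557 in the old libraries and 1.58, 1.34, 1.99, 1.34 and 0.679 in the young libraries, and Timp2 over Timp3 was 1.94 to 3.24 in old and 3.89 to 5.05 in young libraries. Neither ratio overlapped, so Timp3 stood higher relative to Timp1 and to Timp2 in each old library than in any young one.

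Timp1 was also set against the most abundant enzymes, Mmp13, which was lower too, and Mmp9, which was not called. Mmp13 over Timp1 overlapped between groups, at 5.81 to 9.27 in old and 5.11 to 7.63 in young libraries. Mmp9 over Timp1 was 18.3, 21.5, 33.2, 24.2 and 19.5 in the old libraries and 6.34, 6.07, 7.42, 6.79 and 8.13 in the young libraries. The medians of that ratio differed 3.17-fold and the groups lay far apart, although neither the protein nor its activity was measured.

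Genes that work with these enzymes were counted in 7 lists. Over all tested genes, 3.61% were lower in old bone and 3.68% higher, and the counts of each list are to be read beside these shares. Of 19 tested matrix substrates, 14 were lower in old bone and none was higher, with a median log2 fold change of -1.22 against 0.01 over all genes. Those with the smallest p were Col3a1, a fibrillar collagen (log2 fold change -2.69, SE 0.24, edgeR adjusted p = 7.55e-05), Fbn2, a microfibril protein (log2 fold change -1.92, SE 0.22, edgeR adjusted p = 0.000443), and Col5a1, another fibrillar collagen (log2 fold change -1.35, SE 0.17, edgeR adjusted p = 0.000599). Of 10 tested inhibitors outside the TIMPs, 3 were lower and none was higher, among them A2m, the general proteinase trap alpha-2-macroglobulin (0.144 ± 0.0885 CPM in old and 3.86 ± 1.61 CPM in young bone, log2 fold change -4.68, SE 0.42, edgeR adjusted p = 7.80e-05) and the testican Spock1 (log2 fold change -2.94, SE 0.41, edgeR adjusted p = 0.0012).

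Of 5 tested astacin procollagen proteinases and their enhancers, 2 were lower and none was higher, namely Pcolce, which speeds removal of the carboxy-terminal propeptide (log2 fold change -0.91, SE 0.17, edgeR adjusted p = 0.00674), and Tll1, a tolloid-like proteinase (log2 fold change -0.86, SE 0.24, edgeR adjusted p = 0.0482), whose call ended without any 1 of 9 libraries, all but old library 5 (edgeR adjusted p 0.0511 to 0.108). Of 9 tested activators, 2 were lower and none was higher (against 3.61% and 3.68% of all tested genes), the convertase Pcsk5 (log2 fold change -0.73, SE 0.12, edgeR adjusted p = 0.00272) and the surface proteoglycan Sdc4 (log2 fold change -0.55, SE 0.14, edgeR adjusted p = 0.0371). The call of Sdc4 ended without old library 2, 3 or 4 or young library 1, 2, 3 or 4 (edgeR adjusted p 0.0540 to 0.0806). Of 9 tested genes in the list of cathepsins and other matrix proteases, 3 were lower and none was higher, the serine proteinases Htra3 (log2 fold change -1.02, SE 0.14, edgeR adjusted p = 0.00109), Htra1 (log2 fold change -1.45, SE 0.22, edgeR adjusted p = 0.00349) and Fap (log2 fold change -0.89, SE 0.24, edgeR adjusted p = 0.0474). That list also held the osteoclast marker Acp5, which encodes a phosphatase and not a protease, and which was not called. The call of Fap ended without old library 2 or 4 or young library 1, 2, 3 or 4 (edgeR adjusted p 0.0645 to 0.118), with no filter on low counts (0.119) and with muscle markers as a covariate (0.0976).

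Of 11 tested ADAM proteinases, membrane relatives of the ADAMTS enzymes, Adam12 alone was called, at 29.2 ± 5.07 CPM in old and 73.5 ± 10.0 CPM in young bone (log2 fold change -1.33, SE 0.13, edgeR adjusted p = 0.000139). Of 14 tested inducers and transcription factors of MMP genes, none was lower and 1 was higher, Il1b, a cytokine known to induce MMPs, at 11.1 ± 3.34 CPM in old and 5.47 ± 1.5 CPM in young bone (log2 fold change 1.02, SE 0.21, edgeR adjusted p = 0.0132). The median of that list was 0.02, and of all tested genes 3.61% were lower and 3.68% higher. Fibroblast, tendon and periosteum markers, whose cells make MMP2, MMP14 and TIMPs, summed to 164 to 468.6 CPM in old and 622 to 857.2 CPM in young libraries. Of the 8 tested, Postn, a periosteal matrix protein, was lower (log2 fold change -2.24, SE 0.30, edgeR adjusted p = 0.00186) and Pi16 was higher (log2 fold change 0.60, SE 0.12, edgeR adjusted p = 0.0101), and none was at 0 in any library. Without Postn the other 7 summed to 116.5 to 318.7 CPM in old and 165.7 to 265.4 CPM in young libraries, which overlapped, so the gap between the groups rested on Postn. Skeletal muscle markers were present in all libraries, at 39420 to 108300 CPM in old and 23540 to 70020 CPM in young bone, with none of 23 called, although 22 of them had a positive log2 fold change (median 0.54) and 5 had an unadjusted p under 0.05. With muscle markers as a covariate, Mmp13 alone of the called members lost its call (edgeR adjusted p = 0.0881). The part of fibroblast, tendon and periosteum content in the calls above was not tested.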

How the data were processed

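The deposited table holds raw counts of reads per gene. The authors trimmed the reads with Cutadapt, aligned them with STAR to the mouse genome and counted them with featureCounts, per the methods of the study. The labels name a human build, hg38, whereas the gene identifiers are mouse Ensembl identifiers, and all 48 members have the same coordinates in GENCODE vM21. The strand setting of the counting is not known from these sources.

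The analysis used edgeR 4.0.16 in R 4.3.3: a filter on low counts (minimum count 10, minimum total 15), TMM scaling, and a robust quasi-likelihood fit of old against young on all 10 libraries, with Benjamini-Hochberg adjustment over the 22088 tested genes. The standard error was obtained from the fold change and its F statistic, and the 95% intervals are approximate. The median standard error was 0.189 over members and 0.178 over tested genes, and p-values measure the spread between mice. Alternatives were other scalings and filters, DESeq2 1.42.0, limma-voom (limma 3.58.1), the fit without robust estimation, marker covariates, stricter thresholds, a block for replicate number, and the removal of each library in turn. Tables were made with pandas 2.3.3 and numpy 2.4.6 and figures with matplotlib 3.10.9, in Python 3.11.15.

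Members named are those called, the 10 with the highest mean CPM, all TIMPs and the smallest p in each subfamily, and up to 3 called genes with the smallest p in each pathway list. Others are marked where named, except for genes listed only by their log2 range or named as substrates or markers. Some genes are not reported here. The members and lists were chosen with earlier results of these data known. RefSeq promoter windows were matched by symbol for 33 of 48 members. Mmp2, Mmp9, Mmp16, Mmp17, Mmp19, Adamts4, Adamts5, Adamts6, Adamts7, Adamts8, Adamts10, Adamts15, Adamts16, Adamts19 and Adamtsl1 had no entry.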

Additional observations from a re-analysis of the deposited data

Results flagged for a closer look

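Adamts12 was at 15.1 CPM in young library 1, while the other 4 young libraries lay between 20.1 and 21.6 CPM. The gap to the nearest of them was 0.778 of the range of the group, above the critical value of 0.71 for 5 samples. Of 50 groups checked 1 was marked in this way, and chance alone marks about 1 group in 20. The old libraries held 14.6, 9.97, 11.1, 11 and 14.8 CPM, so that young library 1 was still above all of them. The call stood without that library (log2 fold change -0.75, edgeR adjusted p = 0.00856).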

How the results depend on the processing

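Of the 14 called members, 10 (Adamts2, Adamts3, Adamts4, Adamts12, Adamts17, Mmp2, Mmp14, Mmp23, Timp1 and Timp2) kept their call and direction under all 21 other fits, whereas Mmp13, Mmp25, Adamtsl1 and Adamtsl5 each lost it in some. Against 2 members higher and 12 lower, there were 1 and 14 with total count scaling, which moved the median of all genes to -0.16, 1 and 13 with total counts without the noncoding gene Gm26917, 1 and 11 with no filter, and 0 and 8 at an adjusted p of at most 0.01. Without 1 library there were 0 to 3 higher and 10 to 12 lower. Over all genes, 812 higher and 798 lower became 285 and 916 with total count scaling, 1545 and 1283 in DESeq2, 1640 and 1304 with neutrophil markers as a covariate, and 300 and 386 without young library 2.

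The replicate numbers do not pair the mice: 2 of 5 same-numbered pairs correlated above 0.1 (range -0.15 to 0.17, against -0.37 to 0.28 for other pairs). With the replicate number as a block, Mmp13 (edgeR adjusted p = 0.123), Fap (0.0721) and Sdc4 (0.0514) lost their calls, 2 members were higher and 11 lower, the collagenases had 0 lower, the activators 1 lower and the ADAM genes 1 higher, and 957 of all genes were higher and 675 lower.

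By subfamily, 0 collagenases were lower with no filter, with muscle markers as a covariate and at 0.01. Of membrane-type MMPs 0 were higher and 2 lower with total counts, with or without Gm26917, and 0 were higher at 0.01. ADAMTS-like genes had 0 higher with no filter, and 0 higher and 0 lower at 0.01, where other ADAMTS had 1 lower and TIMPs 1 lower. ADAM genes had 1 higher with relative log expression scaling, no filter, DESeq2 and either marker covariate, and 2 lower in DESeq2 and with neutrophil markers. The astacin list had 1 lower without robust estimation and at 0.01, activators 1 higher with muscle markers and 1 lower at 1.5-fold and at 0.01, cathepsins 5 lower with neutrophil markers and substrates 7 lower at 0.01. Inducers had 3 higher with muscle markers, 0 higher at 0.01 and 1 lower with total counts.

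Without 1 library the ranges were 0 to 1 lower for collagenases, 0 to 1 higher for membrane-type MMPs, TIMPs, ADAM genes and activators, 0 to 1 in each direction for ADAMTS-like genes, and 1 to 2 lower for the astacin list, 1 to 3 for activators and 0 to 1 for inducers. Adamts14 turned to -0.12 with total counts and to -0.018 without Gm26917, and ran from -0.037 to 0.10 without 1 library, as Adamts5 did from -0.059 to 0.019. The cause of these shifts was not tested. With a median standard error of 0.189 on the log2 scale among members, small changes could not be told from none.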
